A study of Mus musculus with 15 samples.

Results

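Branched-chain amino acid (BCAA) breakdown was followed through 10 genes in the gastrocnemius of aged female C57BL/6JN mice. The genes are Bcat2, Bckdha, Bckdhb, Dbt, Bckdk, Ppm1k, Ivd, Mccc1, Hibadh and Acadsb, a list set by pathway membership and matched by symbol to the Ensembl gene IDs of the deposited tables. All 10 matched, out of 55450 genes counted, and all 10 were among the 16920 genes that passed the filter on low counts. RNA sequencing covered 15 mice older than 17 months, of which 4 were Low Control and 4 Low Run, 3 were High Control, and 4 were High Run, and each library was 1 mouse. Low mice (robust in the labels) had at most 1 positive frailty marker and High mice (frail in the labels) had 2 or more, with the cutoffs set as percentiles of the study's own cohort and the group assigned after sacrifice. Run mice had 2 bouts of downhill treadmill running (13 m/min, decline 22 degrees) and the muscle was taken 24 h after the last of these, and Control mice stayed sedentary. All mice had the same strain, sex and chow, and there was no young group and no other time after running. Mice are named by the numbers in their labels, such as D9.

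Leucine, isoleucine and valine are essential amino acids that are broken down largely outside the liver, and skeletal muscle is a main site of the first step. Mitochondrial BCAT2 moves their amino group to 2-oxoglutarate and leaves branched-chain keto acids. The branched-chain keto acid dehydrogenase (BCKDH) complex then commits these keto acids to oxidation. Its E1 decarboxylase is formed by the products of Bckdha and Bckdhb, its E2 core is the product of Dbt, and its E3 subunit, Dld, is shared with other dehydrogenase complexes. The kinase BCKDK phosphorylates E1 and switches the complex off, and the phosphatase PPM1K removes the phosphate and switches it on. Downstream, IVD and MCCC1 act on the leucine branch, ACADSB on the isoleucine branch and HIBADH on the valine branch.

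RefSeq windows of the 250 bases before a start site (GRCm38.p6, the patched release of the mm10 build) were found for 9 of the 10 genes, in 11 windows, and Dbt had no entry. Bcat2 and Bckdhb had more than 1 start. The windows of the kinase, the phosphatase and Mccc1 are shown because these genes carry results below and their windows lie wholly outside the annotated gene. Each is written 5′ to 3′ on the strand of its gene, and capitals mark every CCAAT and, for the other strand, every ATTGG. The Bckdk window lies at chr7:127903823-127904072 on the plus strand, the Ppm1k window at chr6:57535488-57535737 on the minus strand and the Mccc1 window at chr3:36000679-36000928 on the minus strand.
Bckdk: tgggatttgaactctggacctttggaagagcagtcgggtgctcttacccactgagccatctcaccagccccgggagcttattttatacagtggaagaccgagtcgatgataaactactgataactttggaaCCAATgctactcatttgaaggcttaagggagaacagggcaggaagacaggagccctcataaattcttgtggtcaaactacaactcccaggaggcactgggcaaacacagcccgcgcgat
Ppm1k: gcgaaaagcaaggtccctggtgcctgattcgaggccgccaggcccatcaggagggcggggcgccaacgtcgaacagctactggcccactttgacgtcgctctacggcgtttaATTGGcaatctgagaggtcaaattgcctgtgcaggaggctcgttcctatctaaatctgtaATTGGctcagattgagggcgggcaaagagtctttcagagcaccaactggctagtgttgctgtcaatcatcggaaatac
Mccc1: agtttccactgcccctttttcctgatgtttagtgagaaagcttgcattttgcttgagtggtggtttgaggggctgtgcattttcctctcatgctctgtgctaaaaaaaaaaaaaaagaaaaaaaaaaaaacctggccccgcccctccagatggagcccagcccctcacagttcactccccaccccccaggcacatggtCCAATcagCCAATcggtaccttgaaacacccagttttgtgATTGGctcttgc
Bckdk held 1 such match, Ppm1k 2 and Mccc1 3. Of the windows not shown, that of Ivd held 4 matches, a Bckdhb window 2 and that of Hibadh 1. Bckdha, Bcat2 and Acadsb held none. Among all 32851 RefSeq windows of the same length, 33.8% held at least 1 match, 10.1% at least 2, 2.79% at least 3 and 0.84% at least 4. Neither the E-box CACGTG nor AAGGTCA, the core of the estrogen-related receptor element, occurred on either strand in any of the 11 windows, and 6.02% and 4.08% of all windows held them. The matches are descriptions of these letters, since no binding was measured.

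Libraries held between 19395125 and 30699216 counts. At this depth the lowest count of a BCAA gene was 312, for Ppm1k, and the highest was 6470, for Ivd. Levels are given as CPM, the count of a gene relative to its library's total after scaling by the trimmed mean of M-values (TMM). The fast fibre genes dominated every library, as in gastrocnemius, with Myh4 between 31525 and 69112 CPM, and slow fibre genes were lower, with Myh7 between 552 and 1648 CPM. Markers of other cells were present throughout. The summed level ran from 35.4 to 119 CPM for macrophage genes, from 153 to 235 CPM for endothelial genes and from 540.4 to 1174 CPM for fibroblast genes. It ran from 85.9 to 302 CPM for adipocyte genes, from 66.4 to 324 CPM for Schwann cell genes, from 33.8 to 74.4 CPM for satellite cell genes and from 243 to 3856 CPM for erythroid genes. Neutrophil genes summed to 395 CPM in Low Run mouse D68 and to at most 53.6 CPM in the others, and Ly6g, a defining neutrophil gene, had 0 counts in 6 mice. Whole muscle was sequenced, so fewer cells of a type and less RNA per cell cannot be told apart in any value below.

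Per kilobase of the principal transcript, Bckdha was the highest of the 10 genes, at 91.8 ± 11.3 CPM per kb (SD, n = 15), followed by Hibadh at 87.8 ± 8.45. Ivd at 51.4 ± 7.86, Bckdk at 49.6 ± 5.14 and Bcat2 at 48.7 ± 9.98 formed a second tier within 1 SD of each other. Bckdhb at 26.1 ± 3.80 and Acadsb at 25.5 ± 2.59 also lay within 1 SD of each other, above Mccc1 at 19.9 ± 2.99 and Dbt at 16.1 ± 2.80. Ppm1k was lowest at 3.84 ± 0.744 CPM per kb, and its highest mouse, at 4.94, was below the lowest mouse of every other gene. The order depends on the length used. With all annotated exons counted, Hibadh came to 15.7 and Mccc1 to 4.47 CPM per kb while Bckdha remained at 91.8. The coefficient of variation over the 15 mice was smallest for Hibadh, at 9.62%, and greatest for Bcat2, at 20.5%, with Ppm1k at 19.4% and Bckdk at 10.4%.

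**Figure D1:**
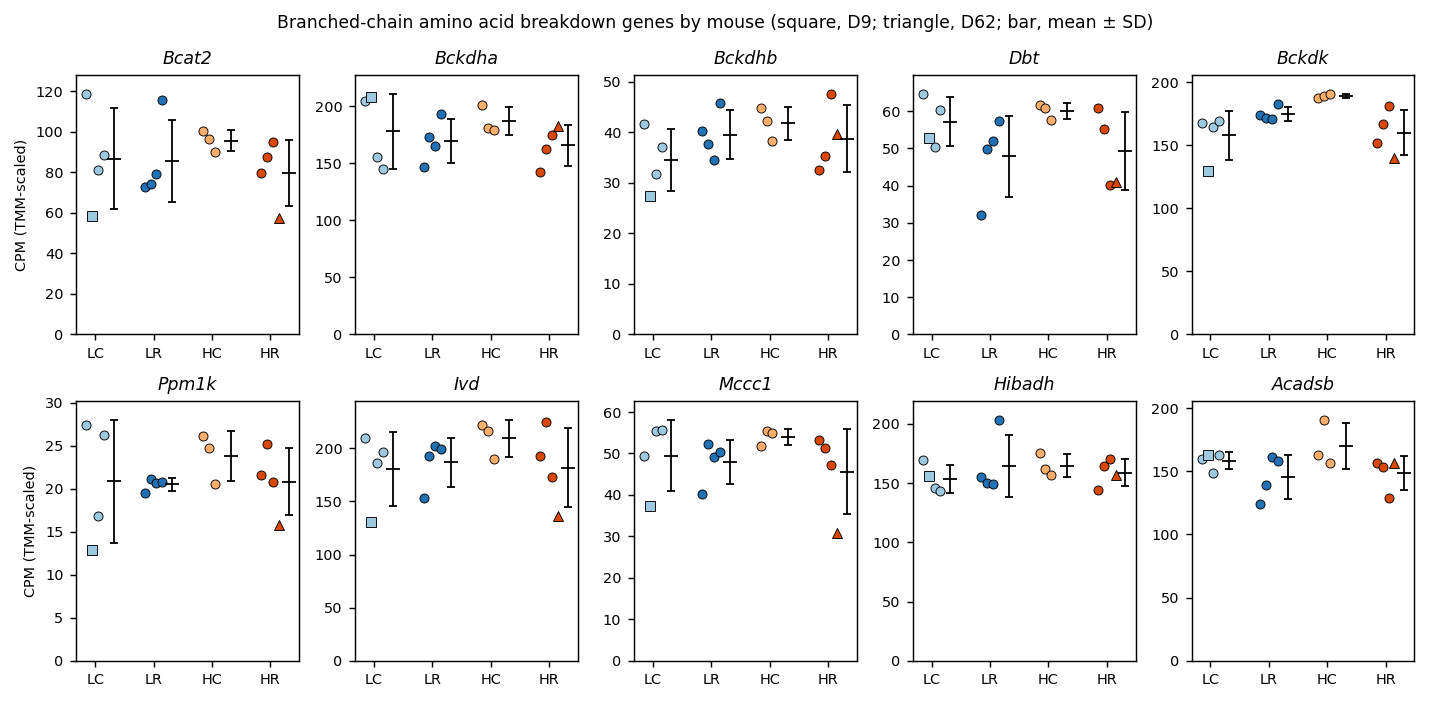
Level of each of the 10 genes (y axis, TMM-scaled CPM, from 0) by group, abbreviated with L or H for Low or High and C or R for Control or Run. Each point is a mouse, the square is Low Control mouse D9 and the triangle High Run mouse D62, and the bar beside each group is its mean ± SD. Bckdk is the panel in which neither run group overlaps its control group, and D9 and D62 are the lowest points of their groups for Bcat2, Bckdk, Ppm1k, Ivd and Mccc1.

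The first question was whether downhill running changed these genes in Low or in High mice. By edgeR's quasi-likelihood F-test, none of the 10 was called at an FDR of 0.1 between run and control Low mice (the Low comparison), between run and control High mice (the High comparison) or for the Frailty × Run interaction. None was called between the 2 control groups or between the 2 run groups either. No gene at all was called by edgeR in these 5 comparisons (0% of 16920). At an unadjusted p under 0.05, 0 of the 10 passed for the Low comparison, where 13.4% of all genes did. For the High comparison 0 passed (5.18% of all genes), 0 between the control groups (5.86%) and 0 between the run groups (2.51%). For the interaction 1 of the 10, Bckdk, passed, where 7.93% of all genes did, and with 1 mouse left out it passed in 5 of 15 fits. DESeq2's Wald test called none of the 10 in the 5 comparisons, and 0.0374% of all genes for running in Low mice, 0.0934% for running in High mice and 0% in the other 3. At an unadjusted p under 0.05 it passed 1 of the 10, Bckdk, for the High comparison (5.55% of the filtered genes), the interaction (8.79%) and the control groups (6.61%). It passed 0 of the 10 for the Low comparison (14.4%) and between the run groups (2.65%).

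The fitted log2 fold changes were small and, in High mice, on 1 side of 0. For the Low comparison the median over the 10 genes was -0.02 (0.02 over all genes tested), and 6 of 10 were negative, beside 48.1% of all genes. For the High comparison the median was -0.20 (0.05 over all genes), with a range from -0.28 to -0.05, and 10 of 10 were negative, beside 42.8% of all genes. For the interaction, which is the High change minus the Low change, the median was -0.19 (0.03 over all genes) and 10 of 10 were negative, beside 46.9%. Between the control groups, as High minus Low, the median was 0.13 (-0.02 over all genes) and 10 of 10 were positive, beside 47.2% of all genes. Between the run groups, also as High minus Low, the median was -0.04 (0.01 over all genes) and 7 of 10 were negative, beside 47.8%. The 10 genes were measured in the same mice, so their signs are not independent of each other. The SD between mice of their mean log2 CPM, pooled over the groups, was 0.145. These comparisons share mice. The High Control mice stand in 3 of them, so the low side in the High comparison and the high side between the controls rest partly on the same 3 animals. Without Low Control mouse D9 and High Run mouse D62 together, 10 of 10 stayed negative in the High comparison, with a median of -0.13, while 6 of 10 were negative for the interaction, with a median of -0.06.

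**Figure D2:**
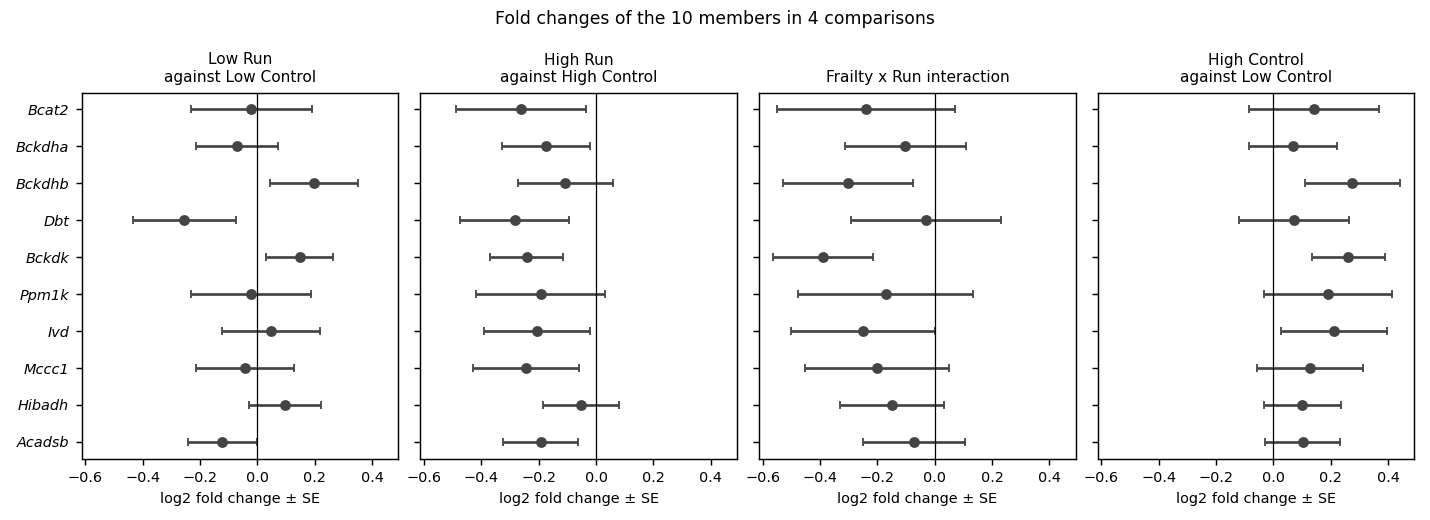
Log2 fold change (x axis, with SE as bars) of the 10 genes from edgeR's fit to all 15 mice, for running in Low mice, running in High mice, their Frailty × Run interaction, and the control groups as High minus Low. The points lie on both sides of 0 in Low mice and below 0 for all 10 genes in High mice and for the interaction. In every panel, the High panel included, most SE bars reach or come near 0.

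Bcat2, which encodes the transaminase of the first step, varied more between mice than between groups. It measured 119, 58.3, 81.2 and 88.6 CPM in the Low Control mice D8, D9, D11 and D98. In Low Run mice it measured 72.7, 74.4, 79.1 and 116 CPM, the last in D68. In High Control mice it measured 100.3, 96.3 and 90.2 CPM, and in High Run mice D49, D52, D53 and D62 it measured 79.4, 87.6, 94.7 and 57.3 CPM. All groups overlapped, and the values of D9 and D62 were nearly the same. The log2 fold change was -0.02 (SE 0.21) in Low mice and -0.26 (SE 0.23) in High mice, with edgeR FDRs of 0.972 and 0.958.

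The subunit genes of the BCKDH complex had fitted log2 fold changes of both signs in Low mice. Bckdha, the E1 alpha subunit, averaged 178 ± 32.7 CPM (SD, n = 4) across the Low Control mice and 169.6 ± 19.3 (n = 4) across the Low Run mice. Across the High Control mice it averaged 187 ± 12.1 (n = 3), and across the High Run mice 166 ± 17.7 (n = 4). Bckdhb, the E1 beta subunit, was at 34.5 ± 6.20, 39.5 ± 4.79, 41.7 ± 3.33 and 38.7 ± 6.62 CPM in the same order. Dbt, the E2 core, was at 57.1 ± 6.57, 47.9 ± 11.0, 60.0 ± 2.21 and 49.3 ± 10.4 CPM, with its lowest mouse, at 32.2, being Low Run mouse D57. The log2 fold change in Low mice was -0.07 (SE 0.14) for Bckdha, 0.20 (SE 0.15) for Bckdhb and -0.25 (SE 0.18) for Dbt. In High mice it was -0.17 (SE 0.15), -0.11 (SE 0.17) and -0.28 (SE 0.19). All run and control groups of the 3 genes overlapped, and the FDRs by edgeR were between 0.491 and 0.973. The annotated Dbt gene overlaps a gene model on its own strand, and its counts could be shared with it, while Bckdha and Bckdhb overlap gene models only on the other strand.

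Bckdk, the kinase that switches the complex off, was the gene of the 10 whose groups separated. Its gene lies at chr7:127904082-127910221 on the plus strand (GENCODE M21) and overlaps no other annotated gene. It measured 167, 129, 165 and 169.5 CPM in Low Control mice D8, D9, D11 and D98 and 174, 172, 171 and 182 CPM in Low Run mice D57, D61, D66 and D68. It measured 187, 189 and 191 CPM in High Control mice and 152, 167, 181 and 139.9 CPM in High Run mice D49, D52, D53 and D62. Every Low Run mouse was above every Low Control mouse, every High Run mouse was below every High Control mouse, and every High Control mouse was above every Low Control mouse. The gap between the Low groups was narrow, from 169.5 to 170.6 CPM. Over all genes tested, 3.35% were higher in Low Run without overlap, 3.60% lower in High Run and 5.13% higher in High Control than in Low Control mice. Higher in Low Run and lower in High Run, both without overlap, held for 0.0591% (10 of 16920 genes), and opposite order either way for 0.1% (17 genes). This joint pattern was taken from the values of Bckdk itself, so its share does not test it. No other BCAA gene was without overlap in the run comparisons or between the controls. None of the 10 was without overlap between the run groups, where 0.721% of all genes were higher and 0.774% lower.

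The fitted differences of Bckdk were small. The log2 fold change was 0.15 (SE 0.12) in Low mice and -0.24 (SE 0.13) in High mice, with edgeR FDRs of 0.55 and 0.956. The interaction was -0.39 (SE 0.17, unadjusted p = 0.0403 and FDR = 0.60 by edgeR). Between the control groups the log2 fold change was 0.26 (SE 0.13, unadjusted p = 0.058 and FDR = 0.704 by edgeR). Without Low Control mouse D9 the Low value was 0.05 and the difference between the controls was 0.17 (log2). The interaction was -0.30 (unadjusted p = 0.066 by edgeR) without D9 and -0.24 (unadjusted p = 0.0933) without D9 and D62. Over the 15 fits that leave out 1 mouse its unadjusted p by edgeR ran from 0.0178 to 0.0717 and was over 0.05 in 10. The separation of the groups held with DESeq2-type size factors and on the deposited values after variance stabilization (VST). With library totals alone the Low groups remained apart but the High groups overlapped, from 172 to 189 CPM in High Control and from 145 to 181 CPM in High Run mice.

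Ppm1k, the phosphatase that opposes BCKDK, was the lowest-expressed of the 10 and had no separation. It measured 27.5, 12.9, 16.8 and 26.3 CPM in Low Control mice and between 19.5 and 21.2 CPM in Low Run mice. It measured 26.1, 24.8 and 20.5 CPM in High Control mice and 21.6, 25.2, 20.8 and 15.7 CPM in High Run mice. The 4 Low Run mice lay inside the range of the Low Control mice, whose lowest mouse was D9. The log2 fold change was -0.02 (SE 0.21) in Low and -0.19 (SE 0.22) in High mice, with edgeR FDRs of 0.970 and 0.965.

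Since the kinase and the phosphatase act on the same site of E1, the ratio of Bckdk to Ppm1k was taken within each mouse. Counts were divided by the length of all annotated exons, and the ratio is free of library scaling. The ratio lay between 9.92 and 16.3 across the Low Control mice and between 13.2 and 14.5 across the Low Run mice. It lay between 11.7 and 15.1 across the High Control mice and between 10.8 and 14.5 across the High Run mice. On the log2 scale the group means in that order were 3.68 ± 0.38, 3.79 ± 0.07, 3.70 ± 0.20 and 3.66 ± 0.22 (SD, n = 4, 4, 3 and 4). Two-sided exact permutation tests gave p = 0.571 for running in Low mice, p = 0.80 for running in High mice, p = 0.971 between the controls, p = 0.314 between the run groups and p = 0.528 for the interaction. Adjusted over these 5 tests by Benjamini-Hochberg, the exact permutation p-values were between 0.952 and 0.971. The smallest p that 4 against 4 mice can give here is 0.0286. The ratio was high, at 16.3, in D9, where both genes were at the low end of their group. It was nearly as high, at 16.0, in D11, where Ppm1k was at 16.8 CPM and Bckdk at 165 CPM. In the other Low Control mice, D8 and D98, it was 9.92 and 10.5.

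**Figure D3:**
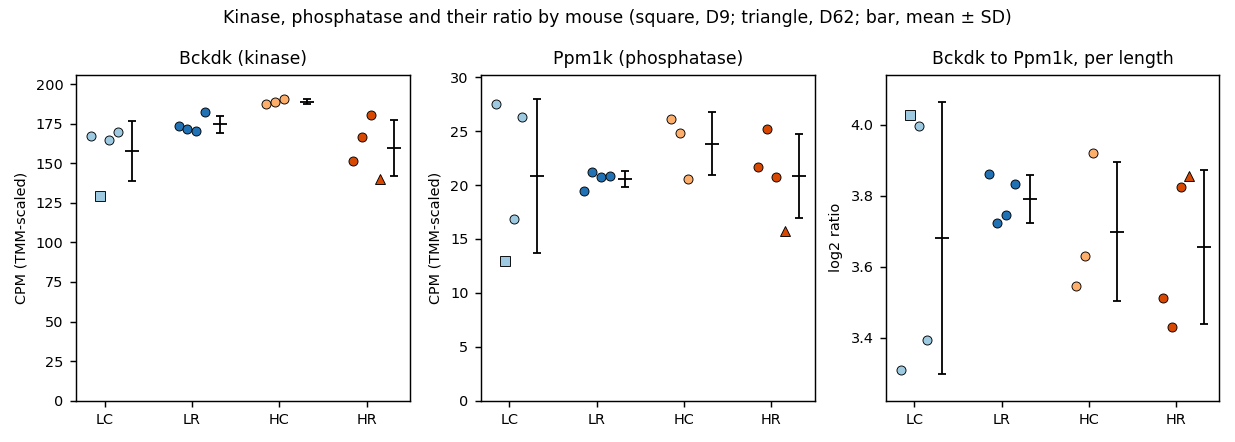
Bckdk (left, TMM-scaled CPM), Ppm1k (middle, TMM-scaled CPM) and the log2 ratio of Bckdk to Ppm1k per length of all annotated exons (right) in each mouse of the 4 groups, with the mean ± SD as a bar, D9 as a square and D62 as a triangle. Bckdk separates between control and run mice in Low and in High mice, Ppm1k does not, and the 4 groups overlap in the ratio, whose axis does not start at 0.

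Of the downstream enzymes, Ivd and Mccc1 carry the leucine branch. Ivd measured 209.5, 131, 186 and 196 CPM in Low Control mice D8, D9, D11 and D98 and between 153 and 202 CPM in Low Run mice. It measured 222, 216 and 189.8 CPM in High Control mice and 192, 225, 173 and 136 CPM in High Run mice D49, D52, D53 and D62. Mccc1 was at 37.3 CPM in D9 and between 49.5 and 55.7 CPM in the other Low Control mice, and at 30.8 CPM in D62 and between 47.2 and 53.3 CPM in the other High Run mice. The 3 High Control mice lay close together for Mccc1, between 51.9 and 55.3 CPM. The groups overlapped for both genes, and their log2 fold changes in High mice were -0.20 (SE 0.18) and -0.24 (SE 0.18).

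Hibadh, the valine-branch dehydrogenase, was the steadiest of the 10. It averaged 154 ± 11.9 CPM (SD, n = 4) without and 164 ± 26.1 (n = 4) with running in Low mice, and 165 ± 9.46 (n = 3) without and 159 ± 11.2 (n = 4) with running in High mice. Low Run mouse D68 was at 203 CPM, against 149 to 155 CPM in the other Low Run mice. D68 also held the highest Bcat2 of its group and the neutrophil genes at 395 CPM, whose part in these values was not tested. Acadsb, the isoleucine-branch dehydrogenase, was at 158 ± 6.68, 146 ± 17.2, 170.1 ± 18.0 and 149 ± 13.5 CPM in the same order of groups. The log2 fold change of Hibadh was 0.10 (SE 0.12) in Low and -0.05 (SE 0.13) in High mice, and that of Acadsb was -0.12 (SE 0.12) and -0.19 (SE 0.13). Mccc1, Hibadh and Acadsb each overlap gene models on their own strand, so their counts could be shared with those.

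The rest of the pathway was described through 17 further genes, all of which passed the filter on low counts. None was called by edgeR in any comparison, where 0% of all genes were, and DESeq2 called none of them. For the Low comparison 11 of the 17 had a positive log2 fold change (median 0.06), and for the High comparison 12 of 17 were negative (median -0.08). For the interaction 13 of 17 were negative (median -0.18), and 15 of 17 were positive between the control groups (median 0.17). At an unadjusted p under 0.05 edgeR passed 1 of the 17, Slc25a44, for running in Low mice, where 13.4% of all genes passed, and 1 of the 17, Pcca, for running in High mice, where 5.18% did.

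The 2 lowest and 2 highest fold changes of the 17 were looked at in each run comparison. In Low mice the lowest was that of Slc25a44, the mitochondrial BCAA carrier, with 41.7, 71.1, 37.2 and 35.8 CPM in Low Control and 26.3, 32.1, 32.5 and 38.4 CPM in Low Run mice (log2 fold change -0.52, SE 0.20, unadjusted p = 0.0213 and FDR = 0.358 by edgeR). D9 held the 71.1, and without D9 the log2 fold change was -0.25 (unadjusted p = 0.124 by edgeR). Next was Aldh6a1, the methylmalonate semialdehyde dehydrogenase of the valine branch, at -0.22 (SE 0.14). The highest were Mcee, which acts on methylmalonyl-CoA, at 0.30 (SE 0.17) and Hsd17b10, of the isoleucine branch, at 0.28 (SE 0.15). In High mice the lowest was Oxct1, which activates ketone bodies, with 534, 565 and 499 CPM in High Control and 421, 438, 437 and 187 CPM in High Run mice (log2 fold change -0.52, SE 0.27, and -0.31 without High Run mouse D62). Pcca, the alpha subunit of propionyl-CoA carboxylase, measured 69.0, 63.8 and 66.3 CPM in High Control and 56.2, 53.7, 48.9 and 42.2 CPM in High Run mice (log2 fold change -0.40, SE 0.14, unadjusted p = 0.0123 and FDR = 0.956 by edgeR). The High groups of Oxct1 and Pcca did not overlap, nor did those of Dld, the shared E3 subunit, which averaged 304 ± 4.83 CPM (SD, n = 3) without and 275 ± 31.2 (n = 4) with running. These 3 of 17 stand beside the 3.60% of all genes that were lower in High Run mice without overlap, and D62 was the lowest High Run mouse for all 3. None of the 17 was higher in High Run mice without overlap, where 3.47% of all genes were. None of the 17 was lower in Low Run than in Low Control mice without overlap, where 3.59% of all genes were. The highest in High mice were Bcat1, the cytosolic transaminase, at 0.47 (SE 0.51), with levels of at most 0.828 CPM in any mouse, and Echs1, an enoyl-CoA hydratase, at 0.17 (SE 0.19).

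Between the control groups, 4 of the 17 genes, Dld, Mccc2, Acat1 and Oxct1, were higher in High Control than in Low Control mice without overlap, beside 5.13% of all genes, and none was lower without overlap. The log2 fold changes of the 17 ran from -0.68 to 0.38 in this comparison, and the smallest FDR by edgeR was 0.704.

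Transcription regulators known to act on this pathway or on mitochondrial genes were measured in the same libraries. Klf15, a muscle activator of BCAA breakdown genes, measured 127, 165, 57.5 and 50.9 CPM in Low Control mice D8, D9, D11 and D98 and between 47.2 and 78.6 CPM in Low Run mice. It measured between 78.8 and 96.4 CPM in High Control mice, and 59.8, 60.9, 61.8 and 176 CPM in High Run mice D49, D52, D53 and D62. The log2 fold change was -0.78 (SE 0.39) in Low mice, where it was -0.43 without D9, and 0.07 (SE 0.42) in High mice, where it was -0.50 without D62. Ppara, a receptor that drives fat oxidation genes, averaged 7.43 ± 1.82 CPM without and 4.01 ± 1.96 with running in Low mice (SD, n = 4 each), and 4.15 ± 1.28 (n = 3) without and 5.70 ± 2.25 (n = 4) with running in High mice. Its log2 fold change was -0.88 (SE 0.35, unadjusted p = 0.0226 and FDR = 0.358 by edgeR) in Low mice and 0.45 (SE 0.38) in High mice, and every High Control mouse was below every Low Control mouse, where 5.27% of all genes were. Ppargc1a, a coactivator of mitochondrial genes, had log2 fold changes of -0.12 (SE 0.23) and -0.21 (SE 0.25) in Low and High mice. Esrra, the estrogen-related receptor that works with it, had 0.16 (SE 0.20) and -0.14 (SE 0.22). At an unadjusted p under 0.05 edgeR passed 1 of the 4 regulators, Ppara, in Low mice, where 13.4% of all genes passed. For the interaction edgeR passed 1 of the 4 (unadjusted p = 0.0201 and FDR = 0.60), where 7.93% of all genes did. Between the control groups 1 of the 4 passed, where 5.86% did.

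Neighbouring mitochondrial gene groups were summarised for comparison by counts and medians. The 16 TCA cycle genes had 12 positive log2 fold changes in Low mice (median 0.10), 16 of 16 negative in High mice (median -0.18), 15 of 16 negative for the interaction (median -0.27) and 16 of 16 positive between the controls (median 0.14). The 16 fatty acid oxidation genes had 9 negative in Low mice (median -0.01), 10 negative in High mice (median -0.07), 7 negative for the interaction (median 0.01) and 8 positive between the controls (median -0.01). The 10 genes of the pyruvate dehydrogenase complex with its kinases and phosphatases had 6 positive in Low mice (median 0.03), 8 negative in High mice (median -0.16), 9 negative for the interaction (median -0.19) and 7 positive between the controls (median 0.10). By the signs of the fold changes, the BCAA genes in High mice were all negative, 10 of 10, as were the TCA cycle genes, 16 of 16, and no test of a difference between these groups was made.

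Mice D9 and D62 belong to different groups, Low Control and High Run, and were the lowest of their groups for the same 5 of the 10 BCAA genes, namely Bcat2, Bckdk, Ppm1k, Ivd and Mccc1 (50%), where 20.6% of all genes tested had both mice lowest. Both mice were often at an end of their group over all genes tested. D9 was lowest for 37.1% and highest for 37.0% of them, and D62 for 32.7% and 31.6%. Against the mean of the other 3 Low Control mice, D9 was at 54.9% for Ppm1k, 60.7% for Bcat2, 66.3% for Ivd, 69.7% for Mccc1 and 77.3% for Bckdk. Against the other 3 High Run mice, D62 was at 60.8% for Mccc1, 65.6% for Bcat2, 69.3% for Ivd, 69.9% for Ppm1k and 84.1% for Bckdk. Bckdha went the other way and was highest of the group in both, at 124% and 114%, while Hibadh (102% and 98.3%) and Acadsb (104% and 107%) were close to the others. Bckdhb was at 74.6% in D9, the lowest of its group, but at 103% in D62, and Dbt was at 90.4% and 78.7%. D9 was the lowest of its group for 6 of the 10 genes and D62 for 5. Oxct1 was at 52.3% and 43.2%. Klf15 was the highest of its group in both, at 211% and 289%. The share of all genes with both mice highest was not counted. Of the TCA cycle genes, 11 of 16 were lowest in both mice, and of the fatty acid oxidation genes 1 of 16.

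**Figure D4:**
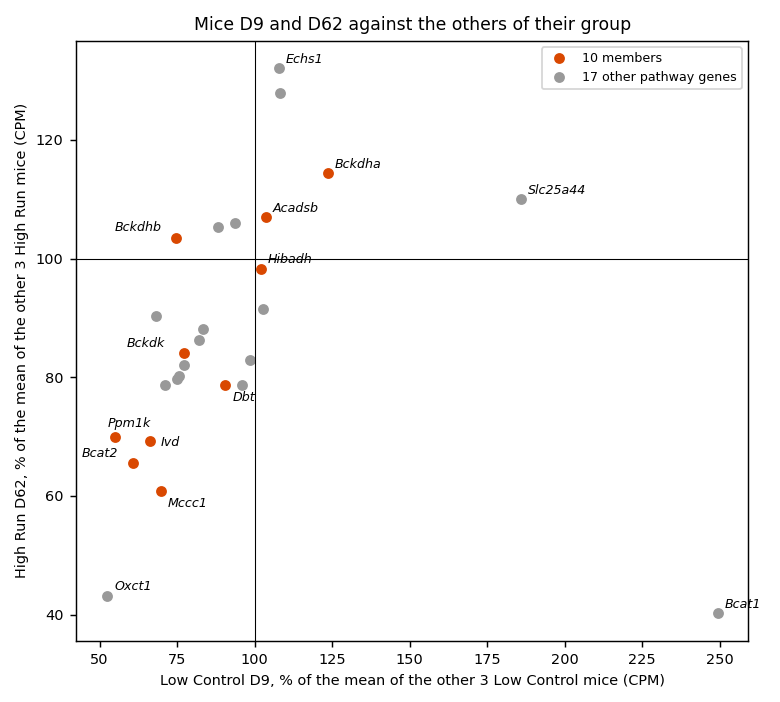
Level in Low Control mouse D9 as a percentage of the mean of the other 3 Low Control mice (x axis) against level in High Run mouse D62 as a percentage of the mean of the other 3 High Run mice (y axis), for the 10 BCAA genes and the 17 other pathway genes, with lines at 100%. Bcat2, Ppm1k, Ivd and Mccc1 lie below 70% on both axes, and Bckdha lies above 100% on both.

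The 2 mice also shared some marker levels within their groups and differed in others. Each had the lowest fast fibre sum of its group (122771 CPM in D9 and 106692 CPM in D62), the lowest macrophage sum (45.1 and 48.7 CPM) and the highest satellite cell sum (49.3 and 74.4 CPM), beside the 5 BCAA genes for which both were lowest. The satellite cell sum was mostly Cdh15, which reached 71.7 CPM. Pax7 and Myf5, the other genes in that sum, were at most 3.35 and 2.15 CPM in any mouse. The slow fibre sums of the 2 mice went opposite ways, at 1452 CPM in D9, the lowest of the Low Control mice, and 3666 CPM in D62, the highest of the 15 mice. D62 also had the highest Schwann cell sum, at 324 CPM, whereas D9, at 115 CPM, lay within its group. The fibroblast sum was lowest in D62, at 540 CPM, whereas D9, at 673 CPM, lay within its group. D9 had the lowest adipocyte sum (110 CPM) and the highest endothelial sum (221 CPM) of its group, whereas D62 lay within its group for both (139 and 216 CPM). Erythroid and neutrophil sums of both mice lay within their groups. The part of fibre or cell composition in these levels was not tested. When each mouse was left out in turn, 3 to 7 of the 10 were negative in Low mice, 8 to 10 for the interaction (8 without D9), and 10 of 10 in High mice in each such fit.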

How the data were processed

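RNA from a powdered portion of gastrocnemius was sequenced in 15 mice, as polyA libraries. Alignment by the authors was with STAR 2.7.9a on mm10, and their methods state counts of uniquely aligned proper pairs on the strand of each non-mitochondrial Ensembl gene, made with featureCounts. The labels list Subread 2.0.3 and DESeq2 1.32.0. The authors deposited raw counts per gene, used here as deposited, and a variance-stabilizing transformation (VST) of them on a log2-like scale, used only as an alternative. All 15 columns were used.

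The counts were tested in edgeR 4.0.16 under R 4.3.3 (filterByExpr, TMM, 1 mean per group, all 15 mice, quasi-likelihood F-test, Benjamini-Hochberg over 16920 genes, calls at an FDR of 0.1), DESeq2 1.42.0 and limma 3.58.1, and in Python 3.11.15. The scripts were tested on simulated data. There 200 genes were changed in High Run mice by a log2 fold change of 1, up or down. At an FDR of 0.1 edgeR recovered 125 of the 200 for the High comparison and 29 for the interaction, with 17 and 6 false calls. Smaller changes, such as those fitted for the BCAA genes, were not simulated. Gene positions came from GENCODE M21 and upstream sequence from RefSeq. The labels give no batch and number the mice without pairing them, and pairs of libraries within a group differed by a chi-square of 15.9 to 209 per degree of freedom, so none was a copy of another. The BCAA genes and all other lists were chosen with earlier results of these data known. Named pathway genes were, with none called, the 2 with the highest and the 2 with the lowest fold change in each run comparison, and the 4 regulators were all named. Dld, Mccc2 and Acat1 were named after their values were seen, and the result of 1 further pathway gene is not reported here. Alternatives were DESeq2, size factors, no count filter, only the groups compared, loess offsets (span 0.3) for length and GC content of genes, limma on VST, an FDR of 0.05, a pseudocount of 0.5 or VST values for the ratio, and each mouse left out. Leaving out D9 and D62 together, other scalings of Bckdk, and the share of genes with its opposite orders were chosen after seeing the data.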

Additional observations from a re-analysis of the deposited data

Results flagged for a closer look

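The BCAA genes, the regulators and the Bckdk to Ppm1k ratio were examined in each group of 4 mice. Among these 45 sets of values, 5 held a mouse far from the other 3. Chance gives about 1 in 20 for a single set, but the same mice recur across the 45, so the sets are not independent. Bcat2 in Low Run mouse D68 was at 116 CPM, against 79.1 CPM in the next mouse. Hibadh in the same mouse was at 203 CPM, against 155 CPM in the next. Bckdk in Low Control mouse D9 was at 129 CPM, against 165 CPM. Acadsb in High Run mouse D53 was at 129 CPM, against 153 CPM. Klf15 in High Run mouse D62 was at 176 CPM, against 61.8 CPM.

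The change of Bckdk with running had an interaction term of -0.39 (log2, High minus Low), and this value did not pass an FDR of 0.1 by edgeR (FDR = 0.60, and 0.32 to 0.918 over the fits that leave out 1 mouse). The groups of Bckdk were ordered in opposite directions, higher in 4 of 4 Low Run mice and lower in 4 of 4 High Run mice than in every control mouse of the same frailty group. Bckdk was flagged for this order. Of all genes tested, 3.35% were higher in Low Run and 3.60% lower in High Run mice without overlap, and 0.1% (17 of 16920) had opposite orders. The Low groups were only 169.5 to 170.6 CPM apart, and with library totals the High groups overlapped.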

How the results depend on the processing

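No setting called any of the 10 BCAA genes or the 17 further pathway genes, and these counts of calls were 0 throughout. With no count filter edgeR called 86 of all genes for running in Low mice, 19 for running in High mice, 4 for the interaction and 6 between the run groups, where the filtered fit called 0. No paired analysis was possible because the groups share no mouse numbers.

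With D9 and D62 left out together, the number of BCAA genes with a negative log2 fold change was 6 for the interaction, 1 between the controls and 4 between the run groups. In the same fit the sign turned for Bckdha (0.0015), Ivd (-0.090) and Echs1 (0.0033) in Low mice and Klf15 (-0.50) in High mice. It also turned for Bcat2 (0.041), Dbt (0.087), Ppm1k (0.12) and Mccc1 (0.065) in the interaction and Bcat2 (-0.015) between the controls. With offsets for length and GC content it turned for Mccc1 (0.077) and Echs1 (0.14) in Low mice and Bckdha (0.0036) and Dbt (0.040) in the interaction. On VST values it turned for Ppm1k (0.032) and Oxct1 (0.020) in Low mice and Klf15 (-0.12) in High mice. The cause was not tested. With library totals, the number of run comparisons in which the Bckdk groups did not overlap was 1 in place of 2.

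Over the fits that leave out 1 mouse, negative BCAA genes numbered from 3 to 7 in Low mice, 8 to 10 for the interaction (median log2 fold change from -0.26 to -0.10), 0 to 1 between the controls and 3 to 10 between the run groups. The genes whose sign turned in some such fit had these ranges. In Low mice the log2 fold change ranged from -0.21 to 0.17 for Bcat2, -0.16 to 0.0016 for Bckdha, -0.20 to 0.14 for Ppm1k, -0.090 to 0.13 for Ivd, -0.17 to 0.031 for Mccc1 and -0.031 to 0.15 for Hibadh. Among the other genes it ranged from -0.13 to 0.57 for Bcat1, -0.21 to 0.057 for Echs1, -0.15 to 0.055 for Pcca, -0.20 to 0.074 for Oxct1, -0.27 to 0.18 for Ppargc1a and -0.061 to 0.26 for Esrra. The interaction ranged from -0.18 to 0.072 for Dbt, -0.33 to 0.0047 for Ppm1k and -0.14 to 0.017 for Acadsb. Between the controls the range was -0.015 to 0.33 for Bcat2 and -0.018 to 0.14 for Bckdha. In High mice it was -0.053 to 0.13 for Hsd17b10, -0.11 to 0.12 for Mcee, -0.50 to 0.21 for Klf15 and -0.25 to 0.016 for Esrra. The log2 difference of the Bckdk to Ppm1k ratio ranged from -0.015 to 0.22 in Low mice, -0.12 to 0.067 in High mice and -0.11 to 0.13 between the controls. Bckdk itself had the same sign in each of these fits, with the interaction between -0.45 without D53 and -0.30 without D9.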
